A study of Mus musculus with 4 samples.

Results

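Stefins are small inhibitors of papain-type cysteine proteases, the cathepsins. The family is described here by 7 genes of the 19491 genes listed in any of the 4 libraries of CD45+ hematopoietic cells: *Stfa1*, *Stfa2*, *Stfa2l1*, *Stfa3*, *BC100530* and *Gm5483*, which belong to the stefin A genes of chromosome 16, and *Cstb*, which encodes stefin B (cystatin B). The genes were chosen by name and family, after their levels in these libraries had been seen, so every level and ratio below is a description and none is a test. All 7 were listed in all 4 libraries, so none had to be set to 0. The cells were sorted by flow cytometry from the dura mater, the outer layer of the meninges, or from the brain of 8-week-old C57BL/6J mice. The time was day 3 after photothrombotic injury (PTI), in which a light-activated dye clots the vessels of a small area (D3), or after sham surgery (S3). The controls are labelled CT and were taken as S3. Each of the 4 conditions had 1 library, the mice in each were not counted in the sources used here, and tissue was digested with collagenase, dispase and DNase before sorting. With 1 library per condition a difference between S3 and D3, or between tissues, and a difference between 2 libraries for any other reason cannot be told apart, and no P value is given.

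Stefin A and stefin B lack a signal peptide and act in the cytosol, where they bind in the active-site cleft of cathepsins with a hairpin loop of the sequence pattern QxVxG. Humans have a single stefin A gene, whereas the mouse has a cluster of copies that are known for their expression in neutrophils and in inflamed skin and bone marrow. Stefin B is made in most cell types, is abundant in phagocytes, and its loss in humans causes a progressive myoclonic epilepsy.

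The 6 stefin A genes lie within 298.582 kb of chromosome 16 (chr16:36156811-36455392, GRCm38, GENCODE annotation), with 3 genes on each strand, and *Cstb* lies on the plus strand of chromosome 10 (chr10:78425669-78427622). Each gene is protein coding and has 3 exons. Because the copies are alike in sequence, the 45 coding bases around the inhibitory loop are shown for comparison by eye. *Stfa2* and *Stfa2l1* have the same 45 bases, so this stretch does not tell these copies apart. The 45 bases lie in a single exon of each gene, and capitals mark the 5 codons of the loop.
*Gm5483* (chr16:36186415-36186459, plus strand): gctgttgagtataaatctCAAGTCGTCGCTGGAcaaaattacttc
*Stfa2l1* (chr16:36159997-36160041, plus strand): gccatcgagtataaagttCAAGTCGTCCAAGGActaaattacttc
*Stfa2* (chr16:36405136-36405180, minus strand): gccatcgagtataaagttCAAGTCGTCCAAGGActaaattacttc
*Stfa1* (chr16:36280517-36280561, plus strand): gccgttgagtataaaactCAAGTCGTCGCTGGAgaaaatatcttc
*BC100530* (chr16:36364218-36364262, minus strand): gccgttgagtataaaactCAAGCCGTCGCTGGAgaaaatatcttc
*Stfa3* (chr16:36452157-36452201, minus strand): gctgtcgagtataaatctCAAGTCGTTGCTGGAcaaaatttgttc
*Cstb* (chr10:78426978-78427022, plus strand): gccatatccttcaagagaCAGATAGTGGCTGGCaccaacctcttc

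Counted from base 1 of the loop and with *Gm5483* as the reference, *BC100530* differed by T5C, which lies in the codon between the glutamine and the valine of the pattern, and *Stfa3* by C9T. *Stfa2* and *Stfa2l1* shared the changes G10C, C11A and T12A, and *Stfa1* had the same 15 bases as *Gm5483*. *Cstb* differed at 5 of the 15 bases (A3G, G4A, C6A, C9G and A15C). Over the whole coding sequence *Stfa1* and *BC100530* were 97.9% identical and *Stfa2* and *Stfa2l1* 96.4%, the other stefin A pairs lay between 77.7% and 84.5%, and *Cstb* shared 56.9% to 65.3% of aligned bases with the stefin A genes.

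This likeness bears on how firmly a read can be given to a copy. All windows of 91 bases in the transcript chosen for each gene were looked up in the 11 other genes compared. The share of windows found in none of these genes was 83.7% for *BC100530*, 85.2% for *Gm5483* and 92.8% for *Stfa1*. It was 97.9% or more for *Stfa2l1*, *Stfa2*, *Stfa3* and *Cstb*. With windows of 50 bases it was 66.5% for *BC100530*, 64.4% for *Gm5483*, 73.1% for *Stfa1* and 83.2% or more for the rest. Reads that fit 2 copies equally well are left out by the counting tool, so the levels of *BC100530*, *Gm5483* and *Stfa1* may be understated relative to the others, and the sum over the 6 copies is given beside each gene.

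Upstream of their RefSeq starts the copies are alike as well. The 30 bases below are RefSeq promoter sequence (GRCm38.p6), shown because every copy carries the same AT-rich box in the same setting, with TTTAAAA in capitals.
*Gm5483* (chr16:36184164-36184193, plus strand): ggaggagtttacagataccTTTAAAAccct
*Stfa2l1* (chr16:36156759-36156788, plus strand): ggaggagtttacagaaaccTTTAAAAccct
*Stfa2* (chr16:36408382-36408411, minus strand): ggaggagcttacagaaaccTTTAAAAccct
*Stfa1* (chr16:36277099-36277128, plus strand): ggaggagctttcggataccTTTAAAAccct
*BC100530* (chr16:36367569-36367598, minus strand): ggaggagtttacagataccTTTAAAAcccc
*Stfa3* (chr16:36455413-36455442, minus strand): gaggagcttacagataaccTTTAAAAcccc

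The box lay 29 to 33 bases before the RefSeq start in 5 of the copies and 9 bases before it in *BC100530*. GENCODE sets the start of the gene further upstream in *BC100530* (base 36367748), *Stfa1* (base 36276951) and *Stfa2* (base 36408457), so that their boxes lie within the GENCODE gene. RefSeq lists *BC100530* as *Cstdc5* and *Gm5483* as *Cstdc4*, and the tables used here hold no promoter for *Cstb*. Of 32851 promoters of 300 bases, 8.74% held TTTAAAA on either strand, and 0.542% held it on the strand of the gene from 40 to 20 bases before the start, as 5 of the 6 stefin A promoters did. The 13 bases acctttaaaaccc, which all 6 share, were found in 9 promoters on either strand, or 0.0274%. The 3 promoters beyond the 6 copies were those of *Csta3*, *Cstdc3* and *Gm7260*, which lie in the same part of chromosome 16. A match is a description of these letters and not a site of binding.

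Levels were read in classes of cells that were named from marker genes: granulocyte precursor-like (*Mpo*, *Elane*, *Prtn3*), immature neutrophil-like (*Camp*, *Ngp*, *Ltf*), mature neutrophil-like (*S100a8*, *S100a9* and other neutrophil genes, or *Cxcr2*, *Csf3r*, *Retnlg* and others, with an immature score under 300), Siglecf+ neutrophil-like (mature with a *Siglecf* UMI and none of the eosinophil genes *Prg2*, *Epx* and *Ccr3*), Ly6C hi and Ly6C low monocyte-like, Lyve1+, Lyve1- and infiltrating macrophage-like, and microglia-like cells. The immature score sums *Camp*, *Ngp*, *Ltf*, *Cd177* and *Mmp8* for each 10000 UMIs of a cell. A mature cell can thus still hold such transcripts and need not carry *Cxcr2*. T cell-like and B cell-like cells, which should lack stefin A, served as the measure of free RNA in the droplets. No stefin gene was a marker. Levels are given in CPM, the unique molecular identifiers (UMIs) of a gene divided by all UMIs of the class and multiplied by 1000000. The assay counts 1 tag at the 3′ end of each molecule, so levels of 2 genes compare without division by length. The 4 libraries held 49003977 to 115154317 UMIs in 3515 to 5925 barcodes, of which 2593 to 4383 were kept, and the median depth of a kept cell was 8241 and 9306 UMIs in the S3 libraries of brain and dura mater and 14124 and 14101 in the D3 libraries. Pairs of libraries shared 3 to 11 barcodes. Intervals are exact Poisson for levels, exact binomial (Clopper-Pearson) for shares of cells and exact Poisson ratio for log2 ratios, all at 95%. They cover counting error only and are too narrow for the stefin A genes, because their UMIs sat in few cells, as described below. For a count of 0 the limit given is a floor of 3 UMIs, which is lower than the upper end of the 95% interval.

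Among the named classes the stefin A genes were found above the level of free RNA in the neutrophil-like classes, above all in mature cells. In mature neutrophil-like cells the 6 copies together reached 1436.5 CPM in brain S3 (95% interval 1378.0 to 1496.8, 279 cells), 1423.6 in brain D3 (1359.5 to 1490.0, 220 cells), 2004.1 in dura mater S3 (1940.8 to 2068.9, 319 cells) and 4294.0 in dura mater D3 (4193.9 to 4395.8, 177 cells). In immature neutrophil-like cells the sum was 215, 281, 141 and 400 CPM in the same order. Granulocyte precursor-like cells were the deepest class, at a median of 34640 to 40159 UMIs per cell, and were at 28.9 CPM in brain D3 (22 cells), 6.13 in dura mater S3 (67 cells) and 8.62 in dura mater D3 (36 cells), and brain S3 had only 2 such cells. The value of brain D3 rested on 26 UMIs in 3 cells, with 17 of them in 1 cell. The order mature, immature, precursor thus held in each library where the 3 classes were measured, with intervals that did not overlap.

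In the monocyte-like, macrophage-like and microglia-like classes the sum of the 6 copies was close to the level of free RNA. A cell entered these classes, or the T cell-like and B cell-like ones, only with a neutrophil score under 50 for each 10000 UMIs of the cell. That score sums *S100a8*, *S100a9*, *Csf3r*, *Ly6g* and *Retnlg*. Cells rich in neutrophil RNA were thus left out beforehand, so the low level is not independent of the gates. T cell-like and B cell-like cells together had 0.733 CPM in brain S3, 1.11 in brain D3, 1.11 in dura mater S3 and 3.48 in dura mater D3, with a stefin A UMI in 0.524%, 0.712%, 0.853% and 2.46% of cells (median 5297 to 6116 UMIs per cell). Ly6C hi monocyte-like cells were at 1.10, 1.16, 1.43 and 2.76 CPM in the same order, and their intervals overlapped those of the lymphocytes in every library. Infiltrating macrophage-like cells of brain D3, 1121 cells with a median of 22678 UMIs, held 26 stefin A UMIs (0.974 CPM), and microglia-like cells 1.55 CPM in brain S3 and 0.702 in brain D3. Lyve1+ macrophage-like cells of the brain held no stefin A UMI in either library, where the floor of 3 UMIs stands at 2.43 CPM in brain S3 and 1.44 in brain D3, whereas those of dura mater D3 were at 3.97 CPM, beside 3.48 in the lymphocytes of that library. Ly6C low monocyte-like cells held at most 2 stefin A UMIs in any library.

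**Figure D1:**
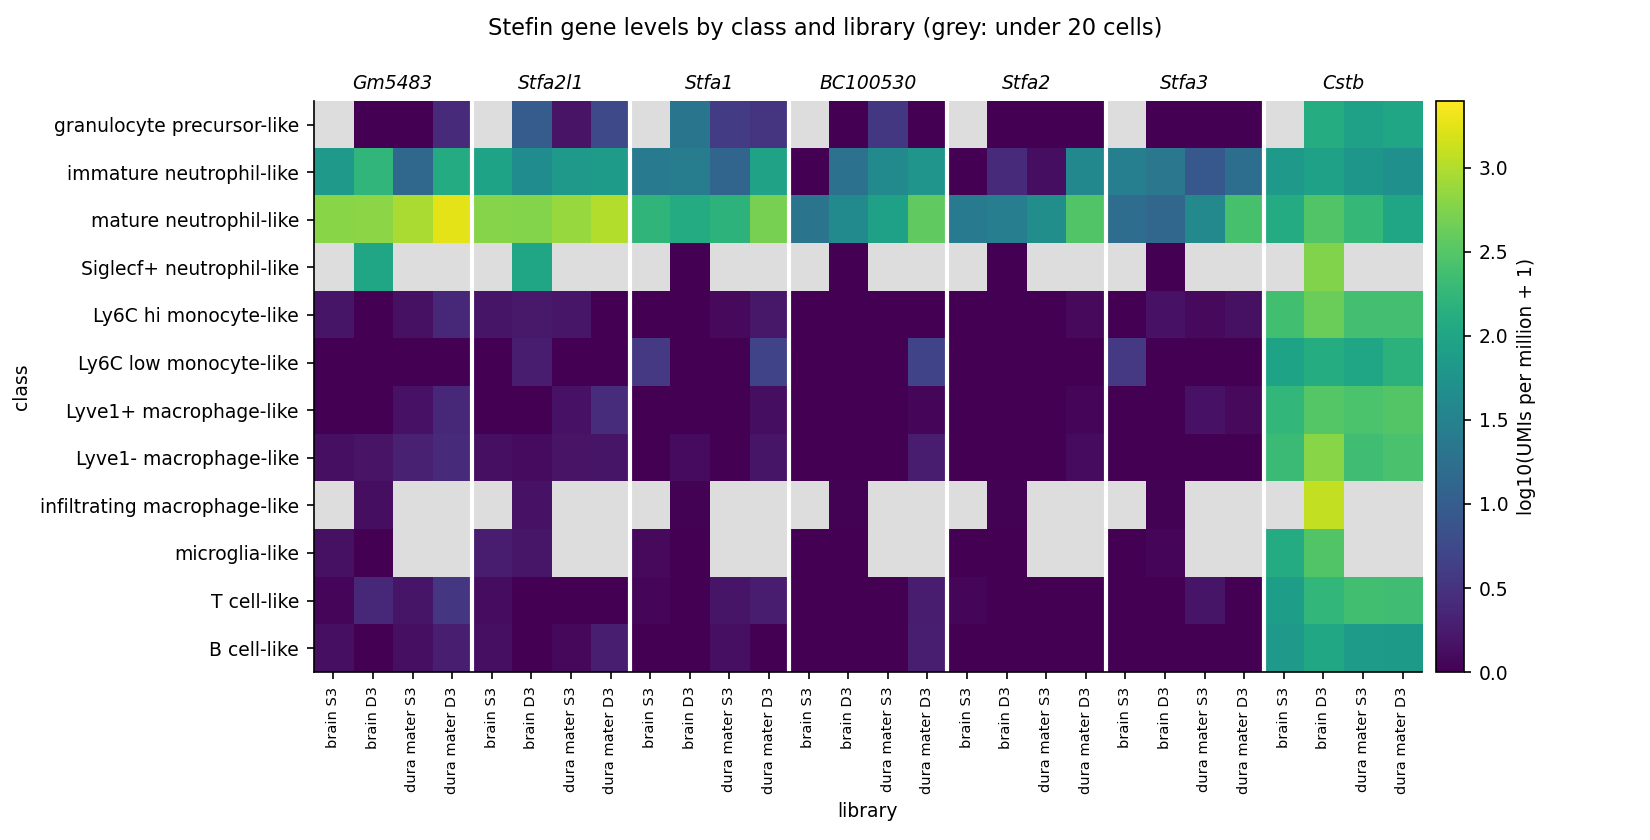
Level of each stefin gene, as log10 of CPM plus 1, in every class (rows) and library (columns within each gene), with groups under 20 cells in grey. *Gm5483* and *Stfa2l1* are bright in mature neutrophil-like cells, where the other stefin A copies are fainter. In the brain *Stfa3* is at 15.2 (S3) and 12.3 CPM (D3) in mature cells, against 28.4 and 21.3 in immature cells. All 6 copies are dark in monocyte-like, macrophage-like and lymphocyte classes, whereas *Cstb* is found in every class and is brightest in infiltrating macrophage-like cells of brain D3.

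Of all stefin A UMIs in kept cells, 64.2% in brain S3, 66.3% in brain D3, 76.3% in dura mater S3 and 75.6% in dura mater D3 lay in the immature, mature and Siglecf+ neutrophil-like classes, and 0.389% to 1.21% lay in classes of other lineages. The remainder, 23.2% to 35.4%, lay in kept cells that no class took. Of these UMIs 96.6% to 99.4% were in the 171 to 271 such cells per library that carried neutrophil markers but met no gate, at a median of 8175 to 15811 UMIs per cell. The classes of other lineages took no cell with a neutrophil score of 50 or more, so their small share is not independent of the gates.

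*Gm5483* and *Stfa2l1* led among the copies. *Gm5483* was at 615 CPM in mature neutrophil-like cells of brain S3, 635 in brain D3, 929 in dura mater S3 and 1836.4 in dura mater D3. *Stfa2l1*, the near twin of *Stfa2* in sequence, was at 596, 586, 747 and 1033.0 CPM. Both led in every library, and together they made up 84.3%, 85.8%, 83.6% and 66.8% of stefin A UMIs.

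*Stfa1* followed at 166 CPM in brain S3, 121 in brain D3, 154 in dura mater S3 and 508 in dura mater D3. The 3 remaining copies were lower still. *BC100530* was at 19.6, 41.5, 88.3 and 365.8 CPM, *Stfa2* at 25.3, 27.7, 46.5 and 295 CPM, and *Stfa3* at 15.2, 12.3, 39.1 and 255 CPM. Dura mater D3 stood highest for each of the 6 copies, and for the 4 less abundant copies it stood above the next library by 3 times or more. The order of *BC100530*, *Stfa2* and *Stfa3* was not the same in every library: in brain S3 their intervals overlapped (*BC100530* 13.3 to 27.8), whereas *BC100530* was above both in the dura mater libraries. As a share of stefin A UMIs *BC100530* was 1.37% in brain S3, 2.92% in brain D3, 4.41% in dura mater S3 and 8.52% in dura mater D3.

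*BC100530*, which is 97.9% identical to *Stfa1* in coding sequence, was carried by very few cells. In mature neutrophil-like cells of brain S3 it had 31 UMIs in 7 of 279 cells, with 15 of them in 1 cell. In brain D3 there were 54 UMIs in 12 of 220 cells, with up to 17 in a cell. Dura mater S3 had 167 UMIs in 9 of 319 cells (up to 49), and dura mater D3 had 596 UMIs in 21 of 177 cells, of which 218 or 36.6% came from 1 cell. The share of cells with a *BC100530* UMI was 2.51% (1.02 to 5.10), 5.45% (2.85 to 9.33), 2.82% (1.30 to 5.29) and 11.9% (7.50 to 17.6), so the 3 lower libraries had overlapping intervals. With each cell thinned to 2000 UMIs the shares were 1.79%, 3.67%, 2.51% and 7.35%. In immature neutrophil-like cells of dura mater S3, 202 of 235 *BC100530* UMIs came from 1 cell, and in those of brain S3 none was found among 101 cells, where the floor of 3 UMIs stands at 2.13 CPM.

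Stefin A transcripts were concentrated in few cells for the family as a whole. Of the 995 mature neutrophil-like cells of the 4 libraries, 494 had no stefin A UMI, 121 had 1 to 3, and 201 had 20 or more. The share of mature cells with a stefin A UMI was 45.2% in brain S3, 46.8% in brain D3, 47.3% in dura mater S3 and 68.4% in dura mater D3 (60.96 to 75.1). Thinned to 2000 UMIs per cell it was 39.4%, 39.0%, 41.7% and 64.4%. Dura mater D3 was also the library with the deepest mature cells, at a median of 7867 UMIs against 4161, 4472 and 5413, and it stood above the other libraries at equal depth too.

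The tenth of mature cells with the most stefin A UMIs held 56.7%, 67.0%, 62.3% and 58.0% of them. The highest cell had 91 UMIs in brain S3, 175 in brain D3, 230 in dura mater S3 and 659 in dura mater D3, and in the last of these cells stefin A was 8.45% of all UMIs. That cell held 218 UMIs of *BC100530*, 163 of *Gm5483*, 121 of *Stfa2*, 86 of *Stfa2l1*, 70 of *Stfa3* and 1 of *Stfa1*, beside 2 of *Cstb*.

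Cells with many stefin A UMIs often carried them from few copies. Of the 201 cells with 20 or more, 51 had UMIs of 1 copy, 83 of 2 copies, 33 of 3, 24 of 4, 6 of 5 and 4 of all 6. In 83 of them (41.3%) more than 80% of the UMIs came from 1 copy. *Gm5483* led in 101 of the 201 cells, *Stfa2l1* in 68, *Stfa1* in 19, *Stfa2* and *BC100530* in 5 each and *Stfa3* in 3.

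Single cells show the range. A cell of dura mater D3 had 152 *Gm5483* UMIs and none of the other 5 copies. A cell of dura mater S3 had 71 of *Stfa2l1* and none of the others, and a cell of brain S3 had 57 of *Gm5483* alone. Another cell of dura mater D3 combined 259 of *Gm5483* with 84 of *Stfa2l1* and 2 of *Stfa1*. In a cell of brain S3, 68 of 79 stefin A UMIs were of *Stfa1*. In the 3 cells with UMIs of a single copy no read was counted for another copy, whereas in the mixed cells such reads cannot be told apart from the transcripts of a further copy.

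The most abundant copies were often found in the same cells. Of the 166 mature cells with at least 10 *Stfa2l1* UMIs, 58 (34.9%) had no *Gm5483* UMI, and of the 159 cells with at least 10 *Gm5483* UMIs, 58 (36.5%) had no *Stfa2l1* UMI. *BC100530* at 10 or more UMIs was seen in 20 mature cells, of which 4 had no *Stfa2l1*, 5 no *Gm5483* and 12 no *Stfa1* UMI. *Stfa1*, its nearest relative in sequence, was at 10 or more UMIs in 39 cells, and 29 of these had no *BC100530* UMI. Across the 995 cells, which share libraries and differ in depth, Spearman's rho was 0.41 between *Stfa2* and *Stfa3*, 0.40 between *Gm5483* and *Stfa2l1* and 0.12 to 0.32 for the other pairs of stefin A copies. Between *Cstb* and each stefin A copy it lay from -0.09 to -0.01. In counts this sparse these values are descriptions.

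**Figure D2:**
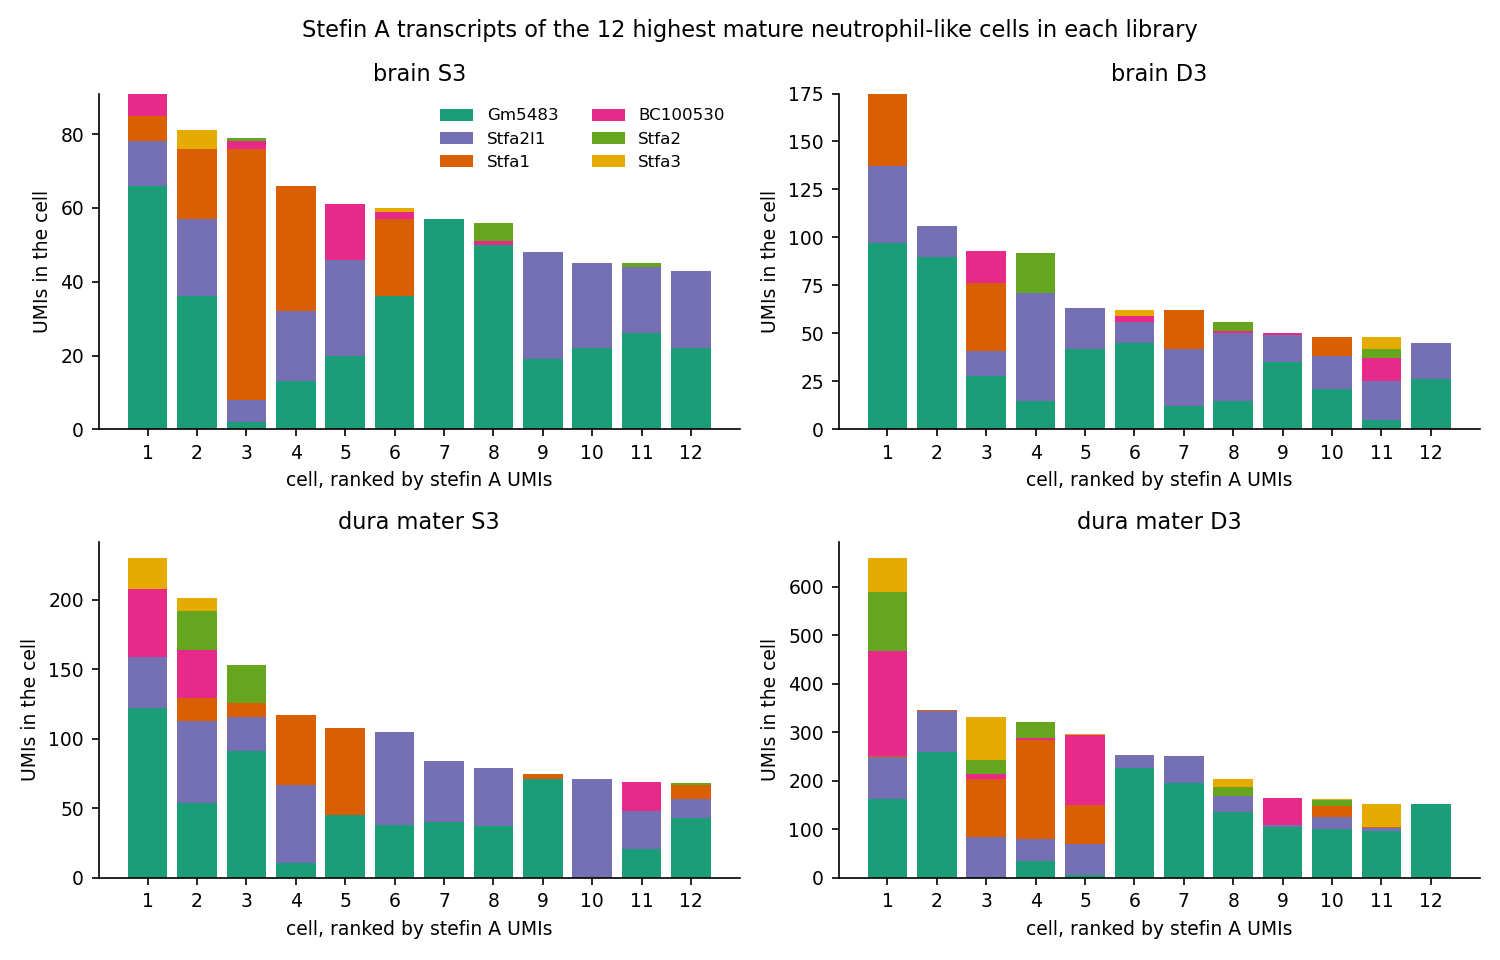
UMIs of each stefin A copy (stacked colours) in the 12 mature neutrophil-like cells with the most stefin A UMIs of each library, ranked from the highest, with a separate vertical scale per library. The highest cell rises from 91 UMIs in brain S3 to 659 in dura mater D3, and cells made of 1 or 2 copies stand beside cells with 4 or more.

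Mature cells with and without a stefin A UMI had similar depth and *Cstb* in 3 of the 4 libraries. In brain S3 the median depth was 4561 UMIs in the 126 cells with and 4060 in the 153 cells without, and *Cstb* was at 123 and 125 CPM. In dura mater D3 it was 8015 UMIs in 121 cells with and 7724 in 56 cells without, with *Cstb* at 94.2 and 108 CPM. Brain D3 stood apart. There the 117 cells without stefin A had *Cstb* at 423 CPM against 170 in the 103 cells with it, and a median neutrophil score (UMIs of *S100a8*, *S100a9*, *Csf3r*, *Ly6g* and *Retnlg* for each 10000 of a cell) of 1243.9 against 2554.5. Of the 220 mature cells of brain D3, 54 clustered with the Siglecf+ cells although they lacked a *Siglecf* UMI, and these had stefin A at 439 CPM and *Cstb* at 1066.9 CPM. The other 166 had stefin A at 1561.1 and *Cstb* at 194 CPM. In the remaining libraries 0 to 4 mature cells fell in that cluster.

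Within each library stefin A was higher in mature than in immature cells. From immature to mature neutrophil-like cells the sum was higher by 2.74 on the log2 scale in brain S3 (95% interval 2.57 to 2.92), 2.34 in brain D3 (2.22 to 2.47), 3.83 in dura mater S3 (3.72 to 3.94) and 3.42 in dura mater D3 (3.35 to 3.50). *Gm5483* was higher by 3.16, 1.90, 6.20 and 3.89 in the same order, and *Stfa2l1* by 2.67, 3.73, 3.45 and 3.82. For background, 15.7%, 16.2%, 16.2% and 16.1% of the 2919 to 5296 genes with at least 100 UMIs in the 2 classes were at least 2-fold higher in mature cells, and 4.45%, 8.55%, 16.2% and 12.9% at least 2-fold lower.

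For *Stfa3* and *BC100530* the order rested on few cells. *Stfa3* in the brain had 24 UMIs in mature against 40 in immature cells at S3 (-0.90, -1.70 to -0.14) and 16 against 54 at D3 (-0.79, -1.69 to 0.04), but 36 of the 40 and 31 of the 54 came from 1 cell each, and without the 5 cells with most UMIs in each group no *Stfa3* UMI was left in immature cells, so no direction is read from these values. In the dura mater *Stfa3* was higher in mature cells by 2.35 at S3, with an interval of -0.39 to 2.31 without those cells, and by 4.01 at D3. *Cstb* was 0.93, 1.78, 1.57 and 0.97 higher in mature cells. *BC100530* was 1.23 higher in brain D3, 1.14 in dura mater S3 and 2.64 in dura mater D3. The value of dura mater S3 contains the immature cell with 202 of 235 UMIs, and without the 5 cells with most UMIs in each group it was 2.15 (0.81 to 3.56). In brain S3 its 31 UMIs in mature cells, 15 of them in 1 cell, stood against 0 in immature cells. The mature level was 9.21-fold the floor of 3 UMIs, which is not a lower bound of the ratio.

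Split more finely by the summed UMIs of *Camp*, *Ngp*, *Ltf*, *Cd177* and *Mmp8*, the secondary-granule genes that also set the immature gate, stefin A was lowest where these genes were highest. At a score of 600 or more for each 10000 UMIs of a cell the sum was at 103, 124, 82.0 and 161 CPM in brain S3, brain D3, dura mater S3 and dura mater D3. It peaked at a score of 5 to 20 in the brain libraries, with 1805.3 CPM at S3 and 2520.4 at D3, and at 20 to 100 in the dura mater, with 3115.6 at S3 and 5042.6 at D3. Below a score of 5 it was 965, 619, 426 and 3113.7 CPM, below the peak of the library in each case. The band from 100 to 300 of brain D3 held only 19 cells. *Cstb* took the opposite end: its highest level in each library was below a score of 5, at 164, 525, 638 and 166 CPM. In mature cells of dura mater S3 with a score under 20, 46 of 164 *Cstb* UMIs came from 1 cell. Of the 391 *Cstb* UMIs of mature cells of brain D3, 170 lay in the 54 cells of the Siglecf+ cluster. The part of these cells in the band levels was not tested.

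**Figure D3:**
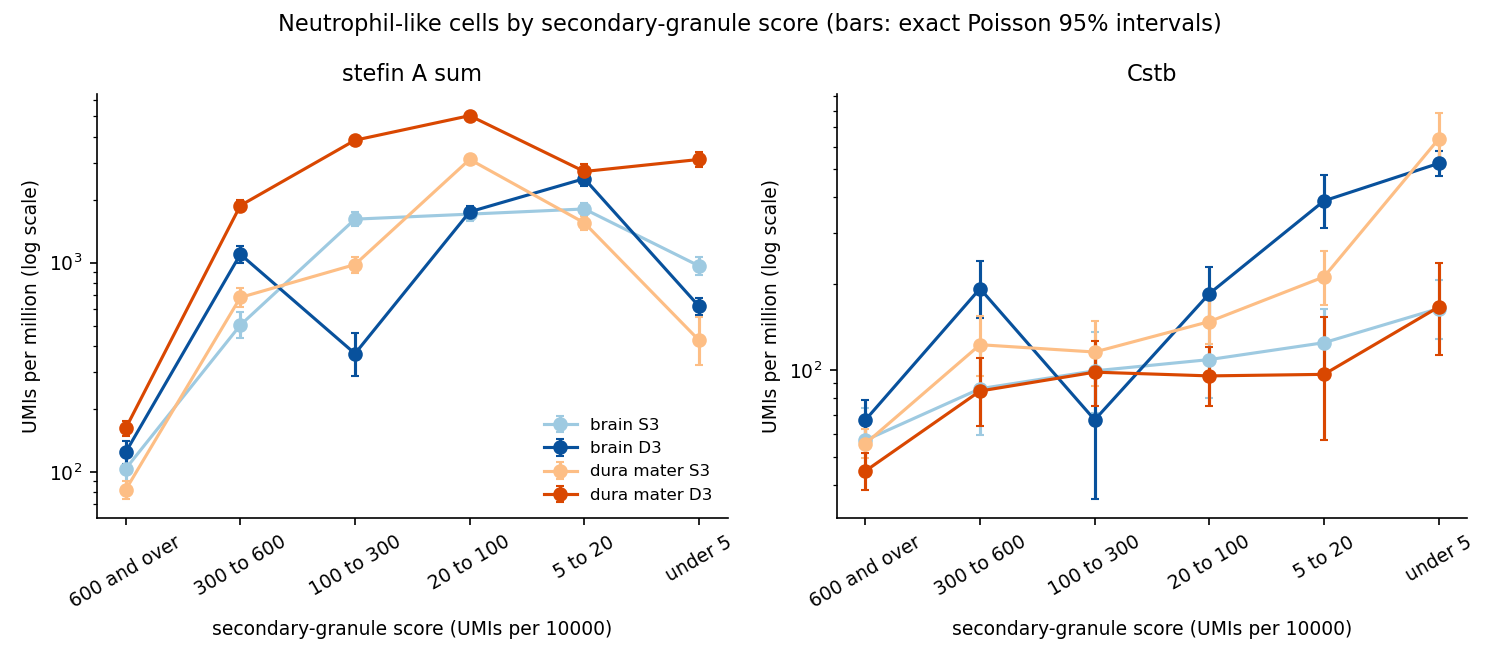
Level of the 6 stefin A copies together (left) and of *Cstb* (right) in CPM on a log scale, in neutrophil-like cells split by their secondary-granule score, from 600 and over at the left to under 5 at the right. Lines join the bands of a library and bars are exact Poisson 95% intervals: stefin A is lowest in the band of 600 and over, at 82.0 to 161 CPM, and *Cstb* is highest in the band under 5.

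In the dura mater, mature neutrophil-like cells carried more stefin A at D3 than at S3. The sum was higher by 1.10 on the log2 scale (95% interval 1.04 to 1.16), a ratio of 2.14. By copy, *Stfa3* was higher by 2.71 (2.35 to 3.08), *Stfa2* by 2.67 (2.34 to 3.01), *BC100530* by 2.05 (1.80 to 2.31) and *Stfa1* by 1.72 (1.53 to 1.92), while *Gm5483* was higher by 0.98 (0.90 to 1.07) and *Stfa2l1* by 0.47 (0.36 to 0.57). The copies that were least abundant at S3 thus had the larger ratios. *Cstb* went the other way, from 185 to 98.2 CPM, or -0.91 (-1.19 to -0.64), with 46 of the 350 UMIs of S3 in 1 cell. Without a filter on cells it was -0.32 (-0.54 to -0.09). Of the 3145 genes with at least 100 UMIs in the 2 groups, 0.922% were at least 2-fold higher at D3, beside 4 of the 7 stefin genes, and 2.19% at least 2-fold lower. The median of all genes was at -0.17, and relative to it the stefin A sum was higher by 1.27.

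The part played by single cells differed by copy. Without the 5 cells with most UMIs of the gene in each group, *BC100530* was higher at D3 by 3.27 (2.43 to 4.22), *Stfa2* by 5.02 (3.95 to 6.35) and *Stfa3* by 4.10 (3.13 to 5.26), since most of their few UMIs at S3 lay in those cells. *Gm5483* was then higher by 0.80 and the sum by 1.04. The share of mature cells with a UMI was higher at D3 for each copy, for instance 13.6% against 3.13% for *Stfa2*, 14.7% against 3.45% for *Stfa3* and 44.1% against 27.3% for *Gm5483*. Mature cells of dura mater D3 also held *Ltf*, a gene of the immature gate, at 845 CPM against 302 at S3 (1.48), the only 1 of 12 measured granule and maturation genes that was past 2-fold, and they were deeper. Their part in the stefin A result was not tested.

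In the brain, mature neutrophil-like cells had similar summed levels at S3 and D3, with a log2 ratio of -0.01 (-0.10 to 0.08). *Gm5483* (0.05), *Stfa2l1* (-0.02), *Stfa2* (0.13) and *Stfa3* (-0.30) had intervals that held 0. *Stfa1* was at -0.46 (-0.75 to -0.17) and at -1.92 without the 5 highest cells of each library, so the value rested on few cells. *BC100530* was at 1.08 (0.42 to 1.77) on 54 against 31 UMIs, and it went opposite ways by secondary-granule score. Cells with a score of 20 or more had 24 *BC100530* UMIs at S3 (30.2 CPM) and 4 at D3 (6.38 CPM). Those under 20 had 7 at S3 (8.90 CPM) and 50 at D3 (74.2 CPM), with 17 of the 50 in 1 cell. The sum was -0.25 without the 5 highest cells of each library and 0.53 when clusters replaced the marker gates. *Cstb* was higher at D3 by 1.28 (1.03 to 1.53) with gates and by 0.24 (-0.06 to 0.53) with clusters. In gated cells outside the Siglecf+ cluster *Cstb* was at 194 CPM at D3 and 124 at S3. Background in this comparison was 4.55% of 2970 genes at least 2-fold higher and 2.69% at least 2-fold lower at D3, and 1 of the 4 stefin genes with at least 100 UMIs, *Cstb*, was past 2-fold.

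**Figure D4:**
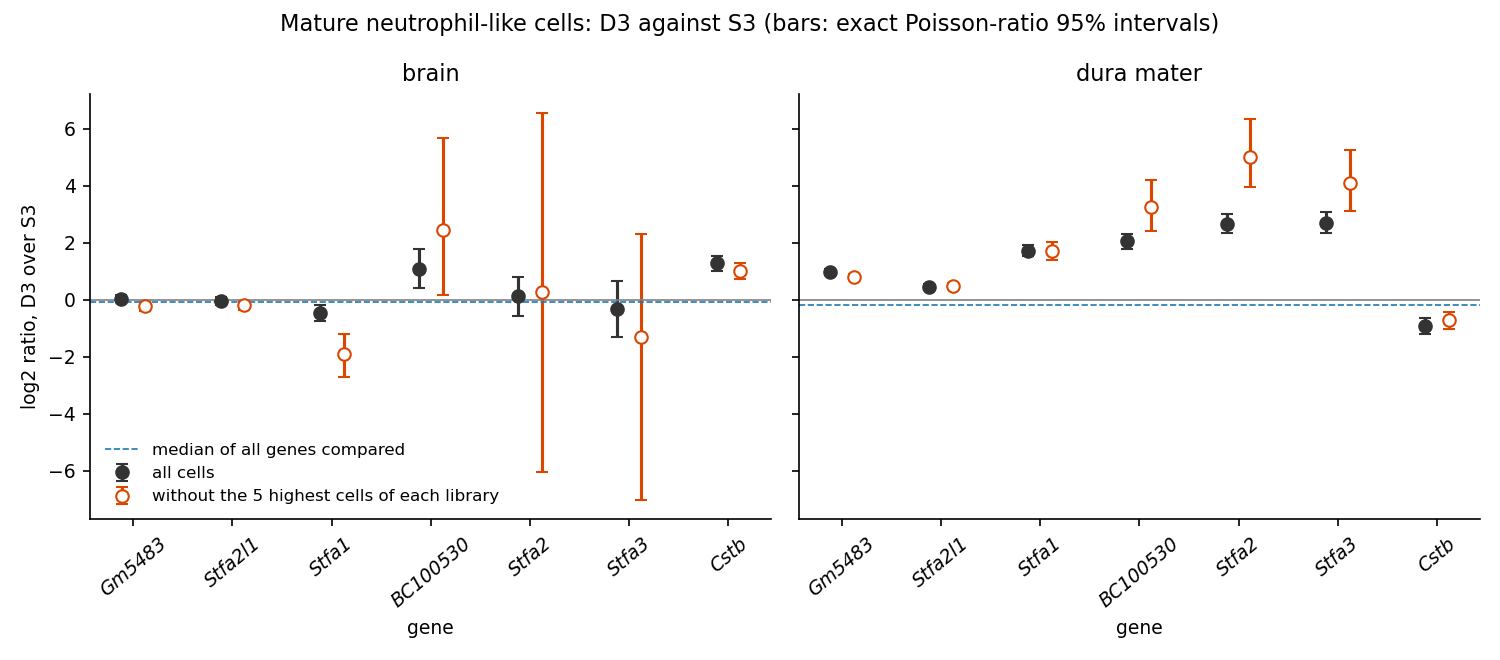
Log2 ratio of D3 over S3 in mature neutrophil-like cells of the brain (left) and dura mater (right) for the 7 genes, with all cells (filled) and without the 5 cells with most UMIs of the gene in each library (open), and bars for exact Poisson-ratio 95% intervals. In the dura mater all 6 stefin A copies lie above 0, from 0.47 for *Stfa2l1* to 2.71 for *Stfa3*, and *Cstb* lies at -0.91, while in the brain *Gm5483* and *Stfa2l1* lie close to 0.

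Between the tissues, the stefin A sum of mature cells was higher in the dura mater, whereas that of immature cells was lower in the dura mater at S3 (141 against 215 CPM) and higher at D3 (400 against 281 CPM), and precursor-like cells at D3 were at 8.62 against 28.9 CPM. These precursor values rested on 11 UMIs in the dura mater, 7 of them in 1 cell, and 26 in the brain, 17 of them in 1 cell. At S3 the mature sum was higher than in the brain by 0.48 (0.41 to 0.56), with *BC100530* at 2.17, *Stfa3* at 1.37 and *Stfa1* at -0.10. At D3 it was higher by 1.59 (1.52 to 1.67), and by copy *Stfa3* was higher by 4.38, *Stfa2* by 3.41, *BC100530* by 3.14, *Stfa1* by 2.07, *Gm5483* by 1.53 and *Stfa2l1* by 0.82. At least 2-fold higher in the dura mater were 1.21% of 3312 genes at S3 and 1.52% of 2838 genes at D3, and at least 2-fold lower 1.51% and 9.73%. These ratios use the same libraries as those of D3 over S3 and add no independent measurement. The make-up of the mature class also differed. Cells with a secondary-granule score of 20 or more were 222 of 319 in dura mater S3 and 106 of 279 in brain S3. In S3 cells under 20, *Stfa2l1* was at 588 CPM in the dura mater and 628 in the brain, *Stfa1* at 44.5 and 155 and *Gm5483* at 636 and 518. *BC100530* had 1 UMI there against 7. At D3 *Gm5483* was at 1371.0 and 618 CPM and *Stfa2l1* at 1231.4 and 597 in such cells. The part of the make-up was not tested.

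Immature neutrophil-like cells of the dura mater also had a higher sum at D3, by 1.503 (1.39 to 1.62), with *Gm5483* higher by 3.30 and *Stfa1* by 2.91, while *Stfa2l1* was at 0.10 (-0.11 to 0.31). *Gm5483* rested on 1 cell with 420 of its 579 UMIs, and without the 5 highest cells of each group it was higher by 2.48 (1.41 to 3.71). *Stfa2* had 178 UMIs at D3 against 2 at S3, a ratio of 112 whose interval on the log2 scale ran from 4.93 to 9.87. These 178 UMIs lay in 12 of 197 cells, with 67 of them in 1 cell. For *Stfa1* 178 of its 417 UMIs at D3 came from 1 cell. Of the sum, 588 of 1864 UMIs at D3 and 211 of 828 at S3 came from 1 cell each. At least 2-fold higher were 0.482% of 5806 genes, and 0.999% were at least 2-fold lower. In the brain the sum of immature cells was at 0.39 (0.19 to 0.59), with *Gm5483* at 1.31 and *Stfa2l1* at -1.09, where 4.68% of 3486 genes were at least 2-fold higher and 2.52% at least 2-fold lower.

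Siglecf+ neutrophil-like cells, a rare state of mature neutrophils, were numerous only in brain D3, with 72 cells against 8 to 19 elsewhere. In brain D3 their stefin A sum was 206 CPM, lower than in mature cells by -2.79 (-3.15 to -2.44). They held 35 UMIs each of *Gm5483* and *Stfa2l1* and none of *Stfa1*, *Stfa2*, *Stfa3* or *BC100530*, where the floor of 3 UMIs stands at 8.83 CPM. *Cstb* was higher in them, at 571 CPM in 86.1% of cells, by 0.93 (0.67 to 1.18). Background here was 7.25% of 2055 genes at least 2-fold lower and 12.2% higher, and 9 of the 12 measured granule and maturation genes were at least 2-fold lower too (*Ngp* -3.16, *Cd177* -2.80, *Retnlg* -2.51). In the other libraries the sum was 2438.3 CPM in 18 cells of brain S3, 2406.2 in 8 cells of dura mater S3 and 2573.9 in 19 cells of dura mater D3, from very few cells, with 72.5% of the UMIs of dura mater S3 in 1 cell.

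*Cstb*, the stefin B gene, had a different distribution. It was found in every class, and in T cell-like and B cell-like cells it was at 67.8 to 232 CPM. In groups of 20 cells or more of the S3 libraries the order by class was led by Ly6C hi monocyte-like cells at 234 CPM and Lyve1- macrophage-like cells at 205 CPM in the brain, whose intervals (219 to 250 and 188 to 222) overlapped, and by Lyve1+ macrophage-like cells at 274 CPM in the dura mater, followed by Ly6C hi monocyte-like at 242, T cell-like at 232 and Lyve1- macrophage-like cells at 230 CPM, which overlapped each other. Immature neutrophil-like cells were the lowest of these groups in each library, with 65.3, 87.4, 62.2 and 50.2 CPM in brain S3, brain D3, dura mater S3 and dura mater D3. In each library that interval overlapped the interval of B cell-like cells.

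The highest level of *Cstb* was in infiltrating macrophage-like cells of brain D3, at 1219.6 CPM (interval 1206.4 to 1232.9), and 99.7% of the 1121 cells had at least 1 UMI of it. They held 32550 of the 48185 *Cstb* UMIs of that library. The Lyve1+ and Lyve1- macrophage-like cells of brain S3 together were at 196 CPM (183 to 211) in 312 cells, so the log2 ratio was 2.64 (2.53 to 2.74). Among 9298 genes of this comparison 7.99% were at least 2-fold higher. Only 2 cells of brain S3, 2 of dura mater S3 and 10 of dura mater D3 fell in the infiltrating class, and the last 10 had *Cstb* at 868 CPM (737 to 1015.7), with 54 of 156 UMIs in 1 cell.

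*Cstb* was also higher at D3 in the other phagocyte classes of the brain, and in its T cell-like cells. Lyve1- macrophage-like cells were at 625 CPM against 205 (1.61, 1.48 to 1.74; 4.27% of 7213 genes at least 2-fold higher, 2.36% lower), microglia-like cells at 296 against 122 (1.28, 1.15 to 1.42; 3.6% of 8409 genes at least 2-fold higher, 2.69% lower), Ly6C hi monocyte-like cells at 425 against 234 (0.86) and Lyve1+ macrophage-like cells at 316 against 178 (0.83). In the dura mater the same classes differed little, Ly6C hi monocyte-like cells being at 0.01 (-0.11 to 0.13), Lyve1+ macrophage-like cells at 0.16 (0.06 to 0.26) and Lyve1- macrophage-like cells at 0.22 (0.06 to 0.39). T cell-like cells of the brain had *Cstb* at 80.7 CPM at S3 and 175 at D3, with 45 UMIs in 1 cell at D3, and B cell-like cells at 67.8 and 105. Together these lymphocytes were at 77.0 CPM at S3 and 161 at D3. The ratios of Ly6C hi monocyte-like and Lyve1+ macrophage-like cells were thus not larger than that of the lymphocytes. With the lymphocyte level subtracted the ratio was 1.59 in microglia-like cells and 3.15 in infiltrating over S3 macrophage-like cells. Since stefin B is made in most cell types, the *Cstb* level of lymphocytes is not a measure of free RNA alone. With stricter gates the microglia-like ratio was 0.75 (0.59 to 0.91), the lowest of its alternatives.

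**Figure D5:**
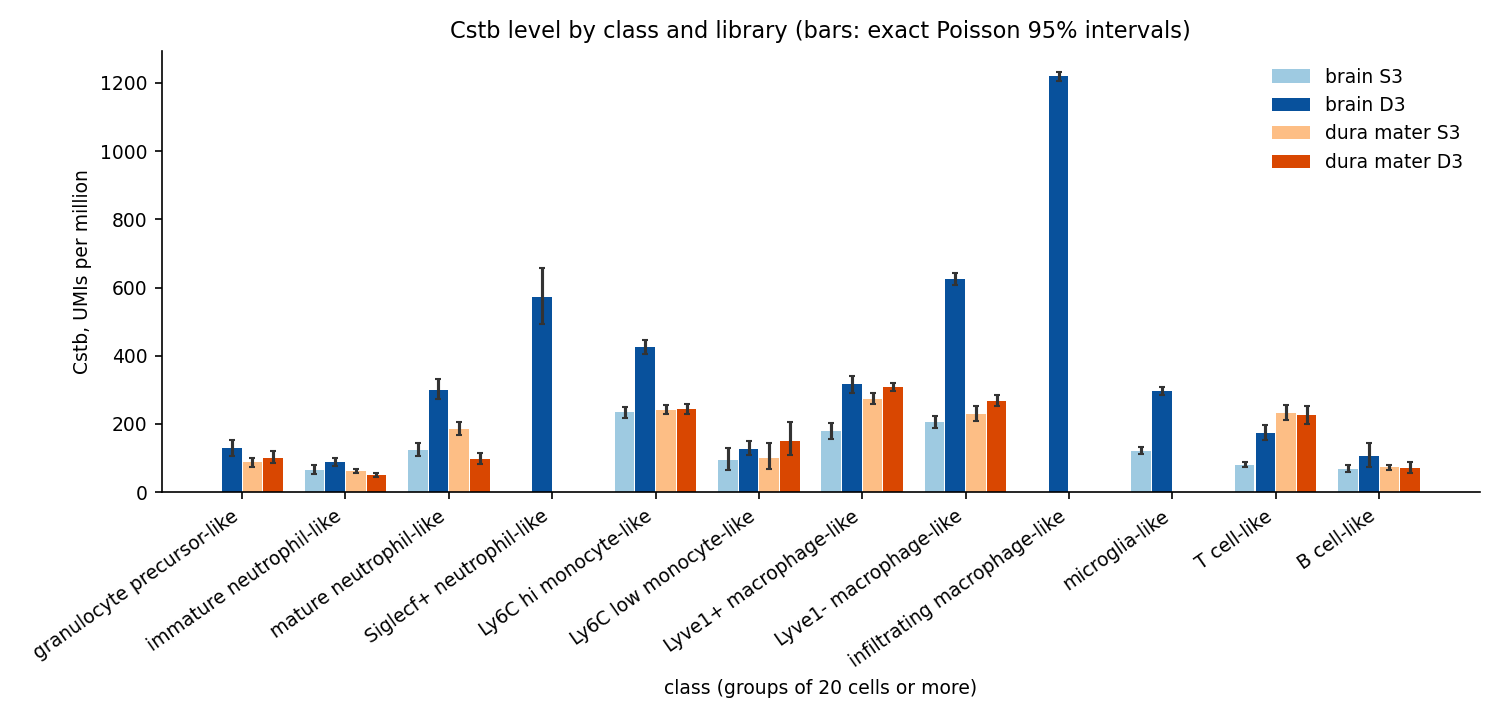
*Cstb* in CPM by class and library, for groups of 20 cells or more, with exact Poisson 95% intervals. The bar of infiltrating macrophage-like cells of brain D3 stands at 1219.6, the next highest bar is Lyve1- macrophage-like cells of brain D3 at 625, and brain D3 is above brain S3 in each class measured in both.

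The enzymes that stefins are known to inhibit were read from a list of 10 papain-type cathepsin genes. In mature neutrophil-like cells of the brain, 4 of the 6 with at least 100 UMIs were at least 2-fold higher at D3, against 4.55% of all genes: *Ctss* (1.96), *Ctsb* (1.70), *Ctsl* (1.37) and *Ctsz* (1.21). The median of the 6 was 1.28, beside -0.09 for all genes. T cell-like cells of brain D3 also had more of these transcripts, *Ctsb* at 611 CPM against 134 and *Ctss* at 352 against 106, and the part of free RNA in the neutrophil values was not tested. In the dura mater none of the 6 was past 2-fold (median 0.20, beside -0.17), with *Ctsl* at 0.71. From immature to mature cells of dura mater S3, 3 of 6 were at least 2-fold higher, led by *Ctsc*, which activates the serine proteases of granules, at 1.98.

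In infiltrating macrophage-like cells of brain D3 against the macrophage-like cells of brain S3, 4 of 10 cathepsin genes were at least 2-fold higher and 3 at least 2-fold lower, against 7.99% and 12.7% of all genes. *Ctsk* was at 4.20 on a low level of 18.7 CPM, *Ctsl* at 2.41 and *Ctsb* at 2.28, with *Ctsb* at 11065.5 CPM, while *Ctsw* was at -3.92 and *Ctsf* at -3.59. In microglia-like cells 1 of 8 was past 2-fold, *Ctsl* at 1.01.

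A list of 15 further inhibitors of proteases, 10 of which were listed in the files, is given beside them. In infiltrating macrophage-like cells 4 of the 7 measured were at least 2-fold lower and none higher, with *Cst3*, which encodes the secreted cystatin C, at -1.91 and *Serpinb8* at -2.19. In microglia-like cells *Cst3* was at -1.13, from 41770.7 to 19119.2 CPM, while *Cst7*, which encodes cystatin F, was at 1.59 and *Serpinb6a* at 1.37. In mature neutrophil-like cells 2 of the list were measured, *Cst3* and *Serpinb1a*, a gene for an inhibitor of neutrophil serine proteases, and neither was past 2-fold in either tissue. From immature to mature cells of dura mater S3 *Serpinb1a* was at -3.35, from 629 to 61.9 CPM, while *Cst3* was at 1.60.

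Other genes of the same locus were rarer than the 6 copies in mature neutrophil-like cells, except in brain S3. There *Gm5416*, with 26 UMIs, stood beside *Stfa3*, with 24. *Gm5416* had 26, 10, 44 and 23 UMIs in mature neutrophil-like cells of brain S3, brain D3, dura mater S3 and dura mater D3, in 8 or 9 cells each. *2010005H15Rik* had 1, 9, 35 and 69 UMIs, of which 27 in dura mater S3 and 40 in dura mater D3 came from 1 cell. *BC117090* was at 0 in both brain libraries, at 2 UMIs in dura mater S3 and at 13 in dura mater D3. Each of the 3 genes thus stayed under 43 CPM, and dura mater D3 was the highest library for the last 2 of them.

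Across the 39 groups of class and library with at least 20 cells, the genes whose level was most like that of each stefin gene were taken from 10719 genes by Pearson's r of log2(CPM + 10). The groups share 4 libraries, and neutrophil-like groups stand apart from the rest, so the values are descriptions. For *Gm5483* they were *Asprv1* (0.975), *Il1f9* (0.969) and *AC110211.1* (0.959), and for *Stfa2l1* they were *Il1f9* (0.987), *AC110211.1* (0.979) and *Nlrp12* (0.976). For *Stfa1* they were *Gm20406* and *Mgam* (both 0.935) and *Dhrs9* (0.921). The rarer copies had lower values: *BC100530* was most like *Prok2* (0.866), *Gm20406* (0.862) and *Lins1* (0.860), *Stfa2* like *Prok2* (0.855), *Lins1* (0.848) and *Gm20406* (0.813), and *Stfa3* like *Gpr27* (0.892), *Klhdc4* (0.878) and *Mgam* (0.871). *Cstb* was most like *Ecm1* (0.863), *Srxn1* (0.862) and *Pwwp2b* (0.823), none of which was among the genes most like a stefin A copy.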

How the data were processed

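Single-cell RNA sequencing libraries (10x Chromium 3′, version 3 chemistry) were made from 4 samples, 1 per condition. Per the study's methods and processing notes, the authors counted reads with Cell Ranger 3.1.0 on mm10 and normalised with Seurat 3.1.0. Each deposited value is a natural log, ln(1 + u), where u is the UMI count of the gene scaled to 10000 UMIs per cell. Counts had been planned for and were recovered from these values, taking the smallest value of a cell as 1 UMI, and 100% of them were whole within a relative 1e-06. Each file lists genes seen in at least 3 cells. No column belonged to an unknown sample (0).

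Cells with over 1000 and under 6000 genes and at most 7% mitochondrial UMIs were used. Scrublet's automatic call marked under 0.5% of cells in each library, so the top scores were removed at 0.8% per 1000 barcodes. The study drew 2500 cells per library, and here all were used. Classes were set by summed marker UMIs for each 10000 UMIs of a cell, with thresholds chosen after the score distributions were seen: 70 of 1898 neutrophil-like cells lay within 20% of the cut at 300 between immature and mature cells. The immature and mature markers overlap the granule and maturation list. The alternative clustering left out 10 genes of the stefin locus (2490 genes, 33 clusters). No class, score or cluster used a stefin gene.

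The 7 genes and all lists were chosen with earlier results of these data known. Of the cathepsin, inhibitor and granule lists, at most 5 genes a comparison were named, those with the largest absolute log2 ratio among genes that reached 100 UMIs over the 2 groups, and 3 genes most like each stefin gene. Intervals are exact and cover counting error only, and no test was run because each condition had 1 library. The calculation of ratios and their intervals was checked on simulated Poisson counts. These lack the concentration of UMIs in few cells, so the check cannot show that the intervals are wide enough for the stefin A genes. Alternatives were thinning to 2000 UMIs per cell, no cell filter, doublets kept, clusters, stricter gates (1.5 times), subtraction of the T and B cell level, 2500 cells per library and centring on the median gene. Python 3.11.15, numpy 2.4.6, scipy 1.17.1, pandas 2.3.3, scanpy 1.11.5, leidenalg 0.10.2, Biopython 1.88 and matplotlib 3.10.9 were used.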

Additional observations from a re-analysis of the deposited data

Results flagged for a closer look

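In mature neutrophil-like cells *Stfa1* went in opposite directions in the tissues, with a log2 ratio of D3 over S3 of -0.46 in the brain and 1.72 in the dura mater. *Cstb* did so the other way round, at 1.28 in the brain and -0.91 in the dura mater, and in immature neutrophil-like cells it was at 0.42 in the brain and -0.31 in the dura mater. The brain value of *Stfa1* lay between -1.92 without the 5 cells with most UMIs in each group and -0.10 with cells thinned, and the values of *Cstb* in mature cells were nearest to 0 at 0.24 (-0.06 to 0.53) with clusters in the brain and at -0.32 without a filter on cells in the dura mater. With 1 library per condition these differences between tissues were not tested. Kept cells that met no gate, which the comparisons leave out, held 1599 stefin A UMIs in brain S3, 1263 in brain D3, 1430 in dura mater S3 and 2876 in dura mater D3.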

How the results depend on the processing

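All values are log2 ratios. The main values of the stefin A sum were -0.01 (brain) and 1.10 (dura mater) for D3 over S3 in mature cells, 2.74 (brain S3), 2.34 (brain D3), 3.83 (dura mater S3) and 3.42 (dura mater D3) for mature over immature cells, and 0.07 (brain) and 0.95 (dura mater) for D3 over S3 in Ly6C hi monocyte-like cells. Those of *Cstb* at D3 over S3 were 1.28 (mature, brain), -0.91 (mature, dura mater), 2.64 (infiltrating over S3 macrophage-like cells) and 1.28 (microglia-like). The values that moved beyond their interval follow by setting, and the cause was not tested. With 2500 cells per library *Cstb* in mature cells of the brain was 1.62, and mature over immature 3.73 in brain S3 and 2.64 in brain D3. Thinned to 2000 UMIs, *Cstb* was 2.78 (infiltrating), 1.58 (mature, brain) and 0.91 (microglia-like), and the sum 2.60 (Ly6C hi, dura mater), 0.13 and 0.94 (mature, brain and dura mater) and, for mature over immature, 2.19 (brain D3), 3.42 (dura mater S3) and 2.99 (dura mater D3). With clusters *Cstb* was 2.82 (infiltrating) and 0.24 (mature, brain), and the sum 0.53 and 0.998 (mature, brain and dura mater) and 4.39, 4.16, 4.59 and 4.12 (mature over immature, in the order above). With doublets kept *Cstb* in microglia-like cells was 1.43 and mature over immature in dura mater D3 3.35. With the T and B cell level subtracted *Cstb* was 3.15 (infiltrating), 1.57 (mature, brain) and 1.59 (microglia-like), and the sum in Ly6C hi cells of the brain -2.86. Without a cell filter *Cstb* was -0.32 (mature, dura mater) and 1.46 (microglia-like), and the sum 0.97 (mature, dura mater) and 3.23 (mature over immature, dura mater D3). Relative to the median gene *Cstb* was 2.74 (infiltrating) and 1.42 (microglia-like), and the sum 1.27 (mature, dura mater) and 2.42, 2.09 and 3.30 (mature over immature, brain S3, brain D3 and dura mater D3). With stricter gates *Cstb* was 2.52 (infiltrating) and 0.75 (microglia-like), and the sum 1.29 (mature, dura mater) and 3.09, 2.58, 4.38 and 4.27 (mature over immature). Of the 2 alternatives chosen after seeing the data, weighting each cell equally gave *Cstb* at 2.86 (infiltrating) and 0.92 (microglia-like), and the sum at 0.16 and 0.92 (mature, brain and dura mater) and 2.12, 3.39 and 2.90 (mature over immature, brain D3, dura mater S3 and D3). Leaving out the 5 cells with most UMIs gave *Cstb* at 2.94 (infiltrating) and 1.02 (mature, brain), and the sum at -0.25 (mature, brain) and 3.71, 3.28, 4.64 and 4.25 (mature over immature). The sum in mature cells of the brain, whose interval held 0, had the other sign under 5 of 10 alternatives. No value could be had for the sum in Ly6C hi cells of the brain when thinned, with stricter gates or without the 5 cells, nor, with T and B cells subtracted, for the sum in Ly6C hi cells of the dura mater and *Cstb* in its mature cells. No paired analysis was possible because each condition had 1 library, which also leaves no replicate to leave out.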
